A study of Saccharomyces cerevisiae with 16 samples.

Results

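The step from 2 h to 4 h of hydroxyurea (HU) in *lsm1∆* cells was described across the genes that were expressed at either time. Genes were taken as expressed when both libraries of 1 of the 2 groups had at least 5 FPKM (a fragment count corrected for gene length and library size, and so comparable between genes of different length) with a Cufflinks estimate marked as sound. This rule kept 6576 of the 7126 genes listed. Of these, 6424 had 5 FPKM in both groups, 91 passed only through the 4 h libraries and 61 only through the 2 h libraries. *SSP2* stood just inside the limit, with 5.11 and 5.02 FPKM at 4 h and 4.94 and 6.67 FPKM at 2 h, and YBR292C just outside it, with 3.57 and 1.48 FPKM at 4 h and, at 2 h, 5.53 FPKM in one library and just under 5 FPKM in the other.

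The study sequenced RNA from budding yeast (*S. cerevisiae*, BY4741 background, a haploid *MATa* laboratory strain) that either lacked the *LSM1* gene (*lsm1∆*) or carried it (WT). Cells growing in rich medium (YPD) were sampled before and 1, 2 and 4 h after 200 mM HU was added, with 2 libraries for each of the 8 conditions. The groups compared are *lsm1∆* cells at 4 h of HU and *lsm1∆* cells at 2 h of HU, so both carry the deletion and both had the drug. WT cells at 4 h and at 2 h of HU served for comparison, and the untreated and 1 h libraries of both strains entered the estimate of the spread.

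HU inhibits ribonucleotide reductase, the enzyme that makes deoxynucleotides, so replication forks slow and cells gather in early S phase with the replication checkpoint active. Lsm1 is part of the cytoplasmic Lsm1-7 ring, which with Pat1 binds the 3′ ends of deadenylated mRNAs and promotes removal of the cap before Xrn1 degrades the message from its 5′ end. Yeast that grows more slowly is known to make fewer ribosomal protein mRNAs and more transcripts of the general stress response, while cells in late S phase or beyond make fewer histone and G1 cyclin mRNAs.

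The 4 libraries compared each rest on about 11090000 to 12470000 fragments, as estimated from the width of the deposited confidence intervals, and the 16 libraries on 11090000 to 13530000. *LSM1* itself was listed at 0 and 0.53 FPKM at 4 h and at 0.49 and 0.27 FPKM at 2 h in *lsm1∆*, as the label requires. Among the markers of the a mating type and of BY4741, *MFA1* stood at 5291 and 5090 FPKM at 4 h and at 6650 and 6993 FPKM at 2 h, and *MF(ALPHA)1* at 1.04 to 3.40 FPKM, while *URA3*, *LEU2* and *MET17*, which this background lacks, were listed at 0. The other alpha genes checked stood higher than *MF(ALPHA)1* in these libraries. *MF(ALPHA)2* had 15.1 to 18.8 FPKM, *SAG1* 17.5 to 29.1 FPKM and *STE3* 6.88 to 8.64 FPKM. *HIS3*, of which the allele of this background keeps a part, had 81.4 and 83.4 FPKM at 4 h and 86.1 and 81.0 FPKM at 2 h. Of the 6576 genes, 6532 could be tested. The other 44 lie in Ty elements and had a failed estimate in a WT library. The study's text calls the libraries duplicates in one place and technical replicates in another, so p-values here measure the spread between these libraries, which may be smaller than that between cultures.

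Between 2 h and 4 h of HU, 270 genes rose and 365 fell in *lsm1∆* (limma on log2(FPKM + 1), Benjamini-Hochberg adjusted p under 0.05). The share called over all 6977 genes tested was 9.14% (3.9% higher and 5.25% lower), and nearly all of those genes belong to the set described. With each library centred on its own median 183 rose and 452 fell (2.65% and 6.49% of all genes tested). The spread was estimated over all 16 libraries, and with the 8 *lsm1∆* libraries alone 103 rose and 107 fell, with the 4 compared libraries alone 14 and 9. Without the first or the second 4 h library 56 rose and 79 fell, and 71 and 163, and without the first or the second 2 h library 85 and 150, and 42 and 73. The differences were small for most of these genes. The median log2 ratio was 0.42 among the genes that rose and -0.40 among those that fell, against 0.02 over all genes tested, and 18 genes rose and 14 fell by at least 2-fold. In all 635 called genes the libraries of the 2 times did not overlap, but neither did they in many genes that were not called, since 2280 genes had both 4 h libraries above both 2 h libraries and 1946 had both below. Among the called genes, 5 that rose had passed the level rule only through the 4 h libraries, and 5 that fell only through the 2 h libraries.

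Differences of more than 4-fold, a log2 ratio beyond 2, were found only in short loci. None of the tested genes of at least 300 bases exceeded it, against 54 shorter ones, of which 12 were called higher and 4 lower. The called ones included 10 of the 11 genes for the same serine tRNA, tS(AGA), each listed at the same values, so they count 1 measurement 10 times. In bulk RNA a lower level of a transcript in each cell and a lower share of cells that make it cannot be told apart, and this holds for all that follows.

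**Figure D1:**
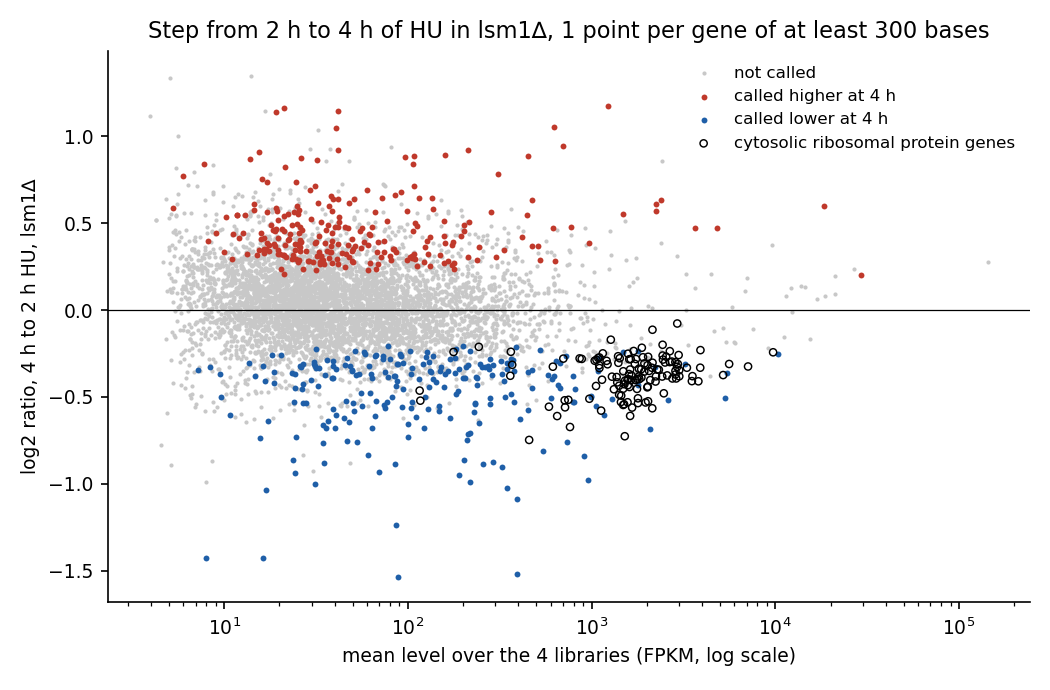
Log2 ratio of 4 h to 2 h of HU in *lsm1∆* against the mean level over the 4 libraries (FPKM, log axis), 1 point for each tested gene of at least 300 bases. Red points were called higher and blue points lower at 4 h, and black rings are the 137 cytosolic ribosomal protein genes, all of which lie below 0.

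The most uniform shift was that of the cytosolic ribosome. All 137 tested genes for its proteins were lower at 4 h than at 2 h, and 107 of them passed the test, with a median log2 ratio of -0.35 and a range of -0.75 to -0.08, against a median of 0.02 over all genes tested. Over the preceding step, 2 h against 1 h in *lsm1∆*, the median of these genes was -0.33, against 0.10 over all genes tested. That step shares the 2 h libraries, and a fall of this size was not particular to the later step. Together these genes summed to 374958 and 380840 FPKM at 4 h, against 458269 and 489631 FPKM at 2 h. The counts of falling genes turn on them, for without the ribosomal protein genes 270 genes rose and 258 fell among 6395. Without the first or the second 4 h library 20 and 71 of them were called, and without the first or the second 2 h library 64 and 18. Among loci of at least 300 bases the largest falls of the group were in *RPS9A*, *RPL27B* and *RPL8A*. *RPS9A*, which encodes a protein of the small subunit, had 330 and 353 FPKM at 4 h and 572 and 575 FPKM at 2 h (log2 ratio -0.75 ± 0.10 SE, adjusted p = 0.0033). *RPL27B* of the large subunit had 1092 and 1193 FPKM at 4 h and 1818 and 1963 FPKM at 2 h, a log2 ratio of -0.73. *RPL8A*, also of the large subunit, had 584 and 593 FPKM at 4 h and 918 and 960 FPKM at 2 h, a log2 ratio of -0.67. The groups lay well apart in each of these genes, though in no called gene did they overlap. At the other end, *RPL36A* had 1504 and 1613 FPKM at 4 h and 1813 and 1855 FPKM at 2 h, a log2 ratio of -0.24 that only just passed (adjusted p = 0.047). Most of these proteins are encoded by a pair of near-identical genes, and reads of 50 bases can be split between the copies, so that a value for 1 copy is less certain than that of the pair.

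*HMO1*, the gene for a high mobility group protein that sits at ribosomal protein and rRNA genes, fell as well. It averaged 162 ± 1.44 FPKM at 4 h and 266 ± 13.6 FPKM at 2 h (SD, n = 2). Its log2 ratio was -0.71 ± 0.07 SE (limma adjusted p = 0.0013), and the gene was picked after its values had been seen. Factors that assemble ribosomes moved less than the ribosomal proteins. Of the genes on this list 89 were below 0 and 16 above, with a median of -0.19, but only *NOP56*, a core protein of box C/D snoRNPs, passed the test, and only just, at 235 and 257 FPKM at 4 h and 309 and 337 FPKM at 2 h (log2 ratio -0.39). In WT the median of the ribosomal protein genes over the same step was -0.22 and that of the assembly factors -0.37, where the median of all genes was -0.19.

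Ribosomal protein promoters are known to be bound by Rap1. The Rap1 letters searched, ACCCANACA on either strand, occurred in the 500 bases before the start codon of 32.8% of the 137 genes, against 3.1% of all 6002 promoters, and in the 250 bases before to 50 after the start codon of 6.57% and 1.47%. The longer stretch was chosen after values had been seen. Upstream stretches of 2 of the genes with the largest falls are given as an example, with the match in capitals. They were read from the R64 genome (sacCer3), as were all the sequences below, and run 5′ to 3′ on the strand of the gene. A match is a description of the letters and not a tested site. The *RPL27B* stretch is chrIV:1401390-1401509 on the plus strand and the *RPL8A* stretch chrVIII:36206-36325 on the minus strand.
RPL27B: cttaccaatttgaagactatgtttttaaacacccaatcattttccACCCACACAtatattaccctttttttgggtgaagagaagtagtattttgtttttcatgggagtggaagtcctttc
RPL8A: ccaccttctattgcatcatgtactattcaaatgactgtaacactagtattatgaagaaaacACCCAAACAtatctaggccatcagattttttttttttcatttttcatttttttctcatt

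Genes of fatty acid synthesis gave some of the largest falls. The list of 19 genes was written after values had been seen, so its count carries no weight as evidence of its own. Of these, 7 fell and 0 rose, with a median log2 ratio of -0.19, and 4 or 5 were called as lower when any 1 of the 4 libraries was left out. They cover the path from acetyl-CoA to activated fatty acids. *ACC1*, the acetyl-CoA carboxylase that makes malonyl-CoA, had 125 and 133 FPKM at 4 h and 230 and 271 FPKM at 2 h (log2 ratio -0.95 ± 0.14 SE, adjusted p = 0.0047). *FAS1*, the beta subunit of the fatty acid synthase, had 239 and 260 FPKM at 4 h and 496 and 569 FPKM at 2 h (-1.09 ± 0.12 SE, adjusted p = 0.0017). *FAS2*, the alpha subunit, had 223 and 232 FPKM at 4 h and 447 and 483 FPKM at 2 h, a log2 ratio of -1.03 that matched that of its partner within the error. *OLE1*, the only fatty acid desaturase of yeast, had 696 and 586 FPKM at 4 h and 1231 and 1291 FPKM at 2 h, a log2 ratio of -0.98. In each of these 4 genes both 4 h libraries were far below both 2 h libraries, though in no called gene did the 2 times overlap. The acyl-CoA synthetases *FAA4* (-0.54) and *FAA1* (-0.45) and the acyl-CoA binding protein gene *ACB1* (-0.37) fell less. The elongase genes of the list, *SUR4* (-0.27), *FEN1* (-0.19) and *ELO1* (-0.14), did not pass the test.

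The preceding step, 2 h against 1 h in *lsm1∆*, shares the 2 h libraries and held 343 rises and 179 falls (4.96% and 2.59% of all genes tested, 7.55% together). None of the 4 genes was called in it, with log2 ratios of 0.19 for *ACC1*, 0.09 for *FAS1*, 0.25 for *FAS2* and 0.26 for *OLE1* (adjusted p from 0.204 to 0.687). *OLE1* averaged 582 ± 30.9 FPKM in untreated cells, 1053 ± 71.4 at 1 h, 1261 ± 42.3 at 2 h and 641 ± 78.0 at 4 h (SD, n = 2). *FAS2* averaged 297 ± 59.8 FPKM in untreated cells, 390 ± 25.4 at 1 h, 465 ± 25.4 at 2 h and 228 ± 6.07 at 4 h (SD, n = 2). In WT, *OLE1* was at 1005 and 1217 FPKM at 1 h, at 451 and 452 FPKM at 2 h and at 467 and 384 FPKM at 4 h. The test of the difference between the strains' steps is given further on. Of 25 *ERG* and related genes 23 were below 0, with a median of -0.18, and 4 fell, namely *ERG25* (-0.45), *HMG1* (-0.35), *ERG7* (-0.34) and *ERG2* (-0.33), but 0 or 1 were called when any 1 of the 4 libraries was left out. *ACS2*, an acetyl-CoA synthetase, fell by 0.37 on the log2 scale.

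The response to mating pheromone supplied a further group of falls. Of 31 tested genes 8 fell and 1 rose, with a median log2 ratio of -0.21, and 4 or 5 were called as lower when any 1 of the 4 libraries was left out. *AGA1*, the anchor subunit of the a-agglutinin that holds mating cells together, had 10.5 and 6.49 FPKM at 4 h and 26.6 and 21.6 FPKM at 2 h (log2 ratio -1.43 ± 0.23 SE, adjusted p = 0.0066). *AGA2*, its adhesion subunit, had 343 and 340 FPKM at 4 h and 525 and 563 FPKM at 2 h, a log2 ratio of -0.67. *BAR1*, the secreted protease that degrades alpha-factor, had 52.2 and 49.5 FPKM at 4 h and 124 and 119 FPKM at 2 h (-1.24 ± 0.12 SE, adjusted p = 0.0013). *STE2*, the alpha-factor receptor, had 177 and 181 FPKM at 4 h and 342 and 320 FPKM at 2 h, a log2 ratio of -0.89. *SST2*, which damps the signal of the receptor, had 42.3 and 44.1 FPKM at 4 h and 76.9 and 78.8 FPKM at 2 h, a log2 ratio of -0.83. No 4 h library of these genes reached a 2 h library, as in every gene called lower. *MFA2*, one of the a-factor genes, had 4440 and 4420 FPKM at 4 h and 7819 and 6590 FPKM at 2 h, a log2 ratio of -0.70, and continued a decline that began at 15788 ± 1254 FPKM in untreated *lsm1∆* cells (SD, n = 2). The G protein gene *STE4* (-0.55) and the regulator gene *KAR4* (-0.26) fell too. The exception was *STE5*, the scaffold of the kinase cascade, with a log2 ratio of 0.58. It had 29.7 and 31.9 FPKM at 4 h and 19.2 and 21.6 FPKM at 2 h. The other a-factor gene, *MFA1*, had a log2 ratio of -0.39 that did not pass the test (limma adjusted p = 0.21).

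Ste12, the transcription factor of the pathway, binds the pheromone response element. Its letters TGAAACA, searched on both strands, occurred in the 500 bases before the start codon of 64.5% of the 31 genes. These 31 are the pheromone genes of the list, of which 8 fell. Over all promoters the share was 12% (721 of 6002). For all genes that fell it was 13.8%, close to that of all promoters, and for genes that rose 7.32%. In the 250 bases before to 50 after the start codon the shares were 51.6% of the 31 genes and 7.5% of all promoters. The stretches below show the matches, in capitals, upstream of 5 of the genes that fell. In *BAR1* the first bases of the 2 matches lie 274 and 184 bases before the start codon, in *STE2* 323 and 197, in *SST2* 245, in *AGA1* 202 and in *MFA2* 365 and 195. The stretches are chrIX:322042-322191 (*BAR1*, plus strand), chrVI:82250-82429 (*STE2*, plus), chrXII:1041517-1041666 (*SST2*, minus), chrXIV:703439-703548 (*AGA1*, plus) and chrXIV:352044-352243 (*MFA2*, plus).
BAR1: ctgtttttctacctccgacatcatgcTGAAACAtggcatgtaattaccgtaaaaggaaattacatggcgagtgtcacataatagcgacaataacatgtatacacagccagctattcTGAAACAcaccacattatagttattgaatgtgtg
STE2: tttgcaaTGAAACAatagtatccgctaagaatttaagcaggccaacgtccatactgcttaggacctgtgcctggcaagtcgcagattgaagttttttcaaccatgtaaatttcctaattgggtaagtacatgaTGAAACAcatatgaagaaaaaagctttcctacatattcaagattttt
SST2: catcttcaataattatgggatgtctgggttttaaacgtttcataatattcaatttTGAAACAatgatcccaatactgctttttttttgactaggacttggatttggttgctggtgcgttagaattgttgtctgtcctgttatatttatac
AGA1: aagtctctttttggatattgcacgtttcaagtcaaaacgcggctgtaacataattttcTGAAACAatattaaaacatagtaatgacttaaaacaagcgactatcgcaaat
MFA2: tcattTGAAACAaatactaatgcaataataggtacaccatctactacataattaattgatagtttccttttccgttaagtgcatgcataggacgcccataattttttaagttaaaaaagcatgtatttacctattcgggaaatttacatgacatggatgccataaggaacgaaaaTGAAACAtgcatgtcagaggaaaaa

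The largest fall among called genes of at least 300 bases and 20 FPKM was that of *HXT1*, the low-affinity glucose transporter that yeast makes when glucose is plentiful. It had 43.5 and 46.4 FPKM at 4 h and 132 and 133 FPKM at 2 h (log2 ratio -1.54 ± 0.12 SE, adjusted p = 0.00038). No other gene among the 24 tested for hexose transport and glucose sensing was called. *HXT4* (0.86), *HXT6* (0.48) and *HXT7* (0.45), which serve lower glucose, lay above 0 and *MIG2* (-0.88), a repressor made in high glucose, below 0, without passing the test. These genes were picked after their values had been seen, and of the 24 genes 15 lay above 0 and 9 below. Within glycolysis 4 of 17 genes fell and 3 rose. Both phosphofructokinase genes fell, *PFK1* to 302 and 319 FPKM at 4 h, against 442 and 455 FPKM at 2 h (log2 ratio -0.53), and *PFK2* to 391 and 407 FPKM at 4 h, against 559 and 529 FPKM at 2 h (-0.45). The pyruvate kinase gene *CDC19* (-0.33) and the enolase gene *ENO2* (-0.25) fell as well. The pyruvate decarboxylase genes rose: *PDC1* had 21553 and 22576 FPKM at 4 h and 14388 and 14793 FPKM at 2 h (0.60 ± 0.04 SE, adjusted p = 0.00038). *PDC5*, its paralogue, had 249 and 169 FPKM at 4 h and 118 and 103 FPKM at 2 h (0.89), with the 4 h libraries well apart from each other. *TDH3* rose by 0.20. The pyruvate carboxylase genes *PYC1* (-0.73) and *PYC2* (-0.57), which feed the citric acid cycle, fell.

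The other large falls were in genes of several kinds. *CWP1*, a mannoprotein of the cell wall, had 157 and 252 FPKM at 4 h and 488 and 669 FPKM at 2 h (log2 ratio -1.52 ± 0.26 SE, adjusted p = 0.0083). *TIR3*, a wall protein made in hypoxia, had 22.0 and 18.8 FPKM at 4 h and 49.1 and 35.4 FPKM at 2 h (adjusted p = 0.0074). *FHN1*, a plasma membrane protein gene related to *NCE102*, had 11.7 and 9.59 FPKM at 4 h and 26.2 and 19.7 FPKM at 2 h (-1.03). YLR413W, a gene of no assigned role, had 161 and 131 FPKM at 4 h and 286 and 294 FPKM at 2 h (-0.99). *ATF2*, an alcohol acetyltransferase gene, had 16.9 and 15.5 FPKM at 4 h and 39.5 and 25.6 FPKM at 2 h (-0.94), and it overlaps YGR176W, whose reads cannot be told from its own in libraries that do not keep the strand. The cell wall list as a whole was mixed, with 5 of 38 genes higher and *CWP1* the only one lower. Among the rises of that list were *HSP150*, a secreted wall protein, with 959 and 891 FPKM at 4 h and 475 and 487 FPKM at 2 h (0.94 ± 0.11 SE, adjusted p = 0.002), *PST1* (0.71), the flocculin gene *FLO10* (0.59; above 5 FPKM only at 4 h), the transglycosylase gene *CRH1* (0.57) and *GAS5* (0.49).

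**Figure D2:**
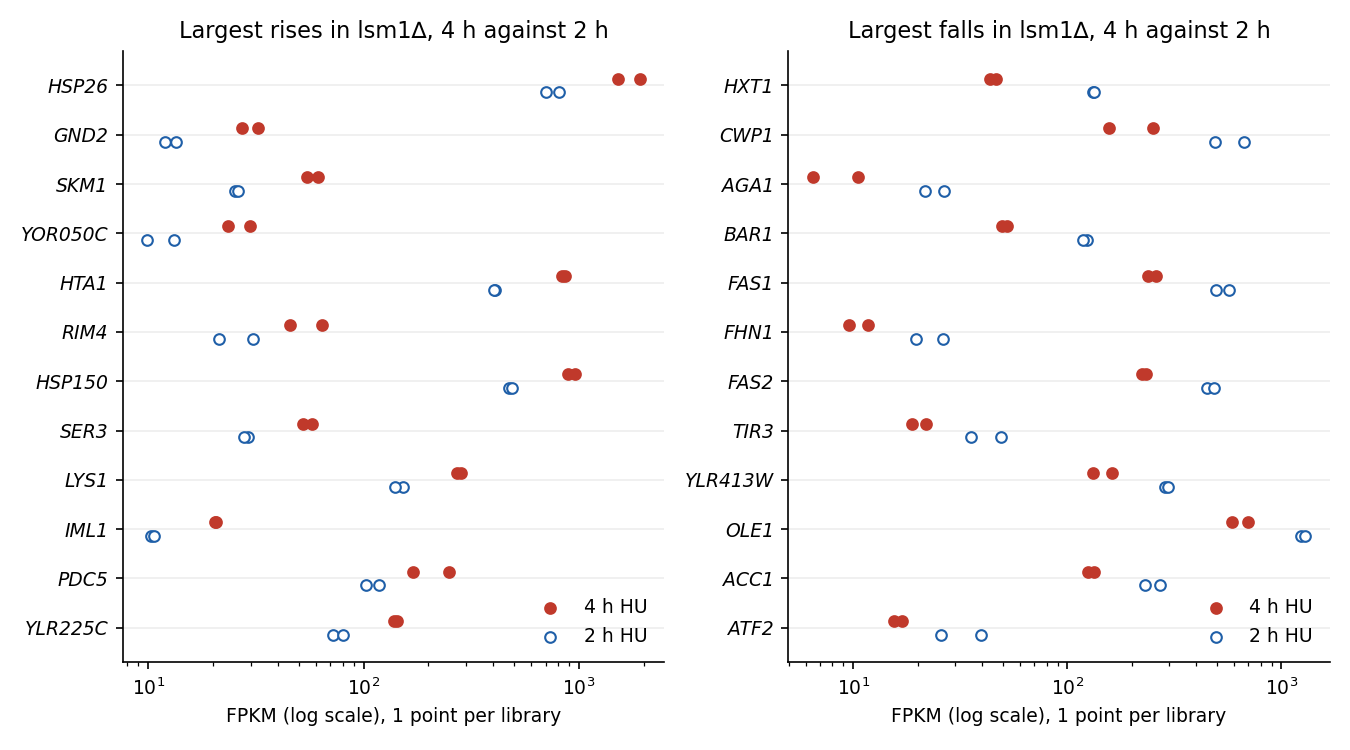
FPKM (log axis) in each library of *lsm1∆* at 4 h (filled red, upper row of each gene) and 2 h (open blue, lower row) for the 12 genes with the largest rises (left) and the 12 with the largest falls (right). The genes were chosen among those whose groups do not overlap, so the separation of the points is fixed by that choice.

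By the same limits on length and level the largest rise was that of *HSP26*, a small heat shock chaperone, with 1907 and 1521 FPKM at 4 h and 809 and 701 FPKM at 2 h (log2 ratio 1.18 ± 0.28 SE, adjusted p = 0.031). *GND2*, a phosphogluconate dehydrogenase gene of the pentose phosphate pathway, had 27.2 and 32.2 FPKM at 4 h and 11.9 and 13.5 FPKM at 2 h (1.16 ± 0.14 SE, adjusted p = 0.0027). Both belong to a list of 39 genes known from stationary phase and general stress. On that list 4 rose and 0 fell in *lsm1∆*, with a median of 0.33, and *TFS1* (0.55) and *SPG5* (0.49) were the other 2. In WT 5 genes of the list rose and 0 fell over the same step, with a median of 0.14. In *lsm1∆* 32 of the 39 genes lay above 0 and 7 below, and some well-known members were not called. *CTT1*, the cytosolic catalase, had 66.9 and 116 FPKM at 4 h and 44.5 and 88.9 FPKM at 2 h. *HSP12* had 3051 and 4669 FPKM at 4 h and 4574 and 5278 FPKM at 2 h. In both genes the groups overlapped, and *HSP12* had the lowest log2 ratio of the list, -0.38. Of 28 heat shock genes *HSP26* alone rose, and *SSA2* (-0.52), *SSB1* (-0.50), *HSC82* (-0.49) and *KAR2* (-0.38), the abundant chaperones of growing cells, fell, and 0 of these 5 calls held with any 1 of the 4 libraries left out. Among glycogen and trehalose genes *GAC1* (0.84), a phosphatase subunit for glycogen synthase that reached 5 FPKM in both libraries only at 4 h, and *NTH2* (0.74), a trehalase, rose and *PGM1* (-0.27) fell, with a median of 0.30 over 20 genes.

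*SKM1*, a protein kinase of the PAK family, had 54.7 and 61.6 FPKM at 4 h and 25.3 and 26.1 FPKM at 2 h (1.15 ± 0.09 SE, adjusted p = 0.00038). *RIM4*, an RNA-binding protein known from meiosis, had 45.5 and 64.3 FPKM at 4 h and 21.4 and 30.6 FPKM at 2 h (1.05). *IML1*, a subunit of the SEACIT complex that restrains TORC1, had 20.5 and 20.7 FPKM at 4 h and 10.3 and 10.6 FPKM at 2 h (0.91). In these 3 genes the lower 4 h library was above the higher 2 h library, as in every gene called higher. YOR050C (1.14) and YLR225C (0.88), with no assigned role, completed the largest rises together with *HTA1*, *SER3* and *LYS1*, described below. YOR050C rested on as few as 17.0 fragments in a library.

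Msn2 and Msn4, activators of many stress genes, bind the element CCCCT. In the 500 bases before the start codon it occurred, on either strand, in 43.9% of promoters of genes that rose, 28.8% of genes that fell and 34.1% of all promoters, and in the 250 bases before to 50 after it in 28.0%, 18.2% and 21.6%. The stretches upstream of the 3 largest rises in genes with a known product show 3 matches in *HSP26* and 2 each in *GND2* and *SKM1*. They are chrII:381540-381729 (*HSP26*), chrVII:1004314-1004483 (*GND2*) and chrXV:103866-104045 (*SKM1*), all on the plus strand, with the element in capitals, read as AGGGG where it lies on the other strand.
HSP26: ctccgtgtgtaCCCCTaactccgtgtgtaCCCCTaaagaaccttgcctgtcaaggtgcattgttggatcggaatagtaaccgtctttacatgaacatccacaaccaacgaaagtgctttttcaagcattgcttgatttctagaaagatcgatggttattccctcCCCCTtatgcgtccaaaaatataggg
GND2: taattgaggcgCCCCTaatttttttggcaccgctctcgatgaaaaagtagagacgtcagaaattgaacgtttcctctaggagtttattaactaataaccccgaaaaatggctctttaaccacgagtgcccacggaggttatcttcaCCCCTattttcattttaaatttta
SKM1: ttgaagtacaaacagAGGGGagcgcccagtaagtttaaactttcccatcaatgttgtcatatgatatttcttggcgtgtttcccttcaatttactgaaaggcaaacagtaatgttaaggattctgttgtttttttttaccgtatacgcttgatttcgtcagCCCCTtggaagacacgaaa

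Histone genes rose in part. *HTA1*, which encodes H2A, had 831 and 859 FPKM at 4 h and 408 and 404 FPKM at 2 h (log2 ratio 1.06 ± 0.13 SE, adjusted p = 0.0029). Its divergent neighbour *HTB1*, for H2B, had 1696 and 1841 FPKM at 4 h and 1210 and 1202 FPKM at 2 h (0.55). The H3 and H4 pair *HHT1* (0.63) and *HHF1* (0.61) rose too, *HHT1* to 2853 and 2937 FPKM at 4 h, against 1886 and 1852 FPKM at 2 h. The other copies were not called, though the H3 and H4 copies lay above 0 and the H2A and H2B copies below it, with log2 ratios of 0.30 for *HHT2*, 0.31 for *HHF2*, -0.27 for *HTA2* and -0.42 for *HTB2*. *HHO1*, the linker histone gene, fell by 0.40. With any 1 of the 4 libraries left out 2 of the 4 rises were called. The copies of a pair are alike enough for reads to be shared between them. *HTA1* had averaged 1698 ± 168 FPKM in untreated *lsm1∆* cells, 334 ± 22.5 FPKM at 1 h and 406 ± 3.25 FPKM at 2 h (SD, n = 2), so its 845 ± 19.5 FPKM at 4 h lay between the levels without the drug and early in it.

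Of 14 genes that report on HU itself, 3 rose and 1 fell. *HUG1*, a small protein induced by the checkpoint, had 10832 and 10180 FPKM at 4 h and 6507 and 5106 FPKM at 2 h (0.87, adjusted p = 0.0079). The small subunit genes of ribonucleotide reductase rose alike, *RNR2* to 4229 and 4225 FPKM at 4 h, against 3186 and 2917 FPKM at 2 h (0.47 ± 0.06 SE), and *RNR4* to 5704 and 5477 FPKM at 4 h, against 4259 and 3800 FPKM at 2 h (0.47 ± 0.06 SE). The large subunit gene *RNR1* fell, with 475 and 625 FPKM at 4 h and 881 and 964 FPKM at 2 h (-0.76, adjusted p = 0.019), a call that held in 1 of the 4 fits that leave out a library. Its damage-inducible counterpart *RNR3* had 373 and 349 FPKM at 4 h and 424 and 321 FPKM at 2 h, and the groups overlapped (-0.03 ± 0.18 SE, adjusted p = 0.95). *SML1*, the inhibitor of the enzyme, had a log2 ratio of 0.47 that did not pass (adjusted p = 0.080). The other 8 genes of this list, among them *DUN1* (0.05) and *RAD54* (0.18), were not called either. Of 64 DNA repair genes only the helicase gene *MPH1* (0.44) was.

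Of 19 genes on the list of G1 genes, 7 lay above 0 and 12 below, with a median of -0.09, and 4 rose and 1 fell. *PCL1* had 138 and 137 FPKM at 4 h and 65.1 and 88.9 FPKM at 2 h (0.84, adjusted p = 0.017). *CLN2* (0.27), *GIC2* (0.64), an effector of Cdc42 in budding, and, from the list of M/G1 genes, the cyclin gene *CLN3* (0.46) rose as well, while *CLN1* (0.31) did not pass. When 1 of the 4 libraries was left out *GIC2* kept its call in every fit, *PCL1* and *CLN3* in 1 each and *CLN2* in 0. *SIC1* (0.33), the inhibitor of S phase kinases, and *MCD1* (0.68), the kleisin of cohesin, also rose. On the lists of S phase, M/G1 and daughter-cell genes the counts were 1 higher and 3 lower of 37, 4 and 1 of 16, and 2 and 3 of 21. The list of Clb2-cluster genes held 4 rises in 30, *IQG1* (0.61), *BUD4* (0.57), *CDC5* (0.55) and *NDD1* (0.41), and 1 fall, that of the B-type cyclin gene *CLB1* (-0.62). When 1 of the 4 libraries was left out *IQG1* kept its call in 1 fit, the other 3 rises in 0 and *CLB1* in every fit. *YOX1*, the homeodomain repressor that the study singled out, had 37.6 and 41.1 FPKM at 4 h and 25.2 and 25.4 FPKM at 2 h (0.62 ± 0.13 SE, adjusted p = 0.018). It was selected by the study on these samples, so its place here is no independent evidence. Of 13 genes the study examined, *YOX1* and *HHT1* were called. *YHP1* is the paralogue of *YOX1* and had 30.6 and 33.9 FPKM at 4 h and 34.6 and 36.8 FPKM at 2 h (-0.14). *ALD6*, an aldehyde dehydrogenase gene, had 446 and 542 FPKM at 4 h and 587 and 729 FPKM at 2 h (-0.41), and neither of them passed the test. *XRN1* (-0.09) and *PAT1* (-0.11) did not either.

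Of 52 genes of the mRNA decay machinery, 7 fell and 4 rose, and the median was -0.10. With any 1 of the 4 libraries left out 2 or 3 fell and 1 rose. *DHH1*, the helicase that promotes decapping, had 87.4 and 87.0 FPKM at 4 h and 136 and 133 FPKM at 2 h (-0.62 ± 0.06 SE, adjusted p = 0.0014). *LSM7*, a subunit of the ring that *lsm1∆* cells cannot complete, had 99.7 and 107 FPKM at 4 h and 152 and 156 FPKM at 2 h (-0.57), and *LSM4* (-0.38) fell too. *CDC39*, the scaffold of the Ccr4-Not complex, had 73.4 and 76.4 FPKM at 4 h and 52.4 and 54.4 FPKM at 2 h (0.48, adjusted p = 0.0056).

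Amino acid genes went both ways, with 11 falls and 5 rises among 65 and a median of -0.11, or 2 to 3 falls and 1 to 2 rises with any 1 of the 4 libraries left out. The rises were led by single steps of 2 pathways. *SER3*, the first enzyme of serine synthesis, had 52.3 and 57.5 FPKM at 4 h and 29.1 and 27.9 FPKM at 2 h (0.92), a locus that overlaps the noncoding *SRG1* transcript. *LYS1* and *LYS9*, the last enzymes of lysine synthesis, rose together, on a list of 9 lysine genes that was also written after values had been seen. *LYS1* had 273 and 283 FPKM at 4 h and 153 and 140 FPKM at 2 h (0.92, adjusted p = 0.014), and *LYS9* had 378 and 404 FPKM at 4 h and 214 and 239 FPKM at 2 h (0.78). The earlier steps, *LYS20* (0.10), *LYS21* (0.14), *LYS4* (0.14), *LYS12* (0.25) and *LYS2* (0.04), were not called. The activator gene *GCN4* rose by 0.38. The falls were led by genes of the methyl cycle, a list written after values had been seen in which 5 of 16 genes fell and 1 rose, or 1 or 2 and 0 with any 1 of the 4 libraries left out. *SAM2*, an S-adenosylmethionine synthetase gene, had 140 and 147 FPKM at 4 h and 274 and 251 FPKM at 2 h (-0.86 ± 0.10 SE, adjusted p = 0.0017), and *MET6*, the methionine synthase gene, had 154 and 159 FPKM at 4 h and 272 and 255 FPKM at 2 h (-0.75). *LEU9* (-0.61), *HOM3* (-0.56) and *HIS1* (-0.55) followed. Of 38 redox genes 3 fell and 2 rose, where 5.25% of all genes tested fell and 3.9% rose. The median of the list was 0.09, with 22 genes above 0 and 16 below. Its falls were the peroxidase genes *GPX2* (-0.81) and *TSA1* (-0.50) and the thioredoxin reductase gene *TRR1* (-0.38).

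The lists for mitochondrial function differed from each other. Of 27 respiratory chain genes 26 lay above 0, with a median of 0.35, and 0 were called. The ATP synthase genes had a median of 0.17 over 17 genes, again with 0 called. Of 75 mitochondrial ribosomal protein genes 58 lay above 0, with a median of 0.10, and 4 rose, *MRPS35* (0.40), *MRPL13* (0.36), *MRPL6* (0.29) and *MRP51* (0.26), of which 1 or 2 were called with any 1 of the 4 libraries left out. The 36 genes of mitochondrial protein import had 16 above 0 and 20 below, with a median of -0.02, 0 rises and 1 fall. *HAP4*, the activator of respiratory genes, had 69.3 and 79.1 FPKM at 4 h and 41.0 and 50.3 FPKM at 2 h (0.69 ± 0.13 SE, adjusted p = 0.013). In the lists for zinc and copper, ATP synthase, the respiratory chain and the genes of mitochondrial DNA no gene was called in either direction, in a design where 1635 of the 6532 genes had an unadjusted p under 0.05. The lists for iron, purines, phosphate, autophagy, the proteasome, aldehyde and alcohol metabolism, nitrogen and permeases, anaerobic wall proteins, meiosis and phospholipids held 1 or 2 calls each. The citric acid cycle and gluconeogenesis list held 2 rises and 3 falls in 33 genes, with a median of 0.21.

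**Figure D3:**
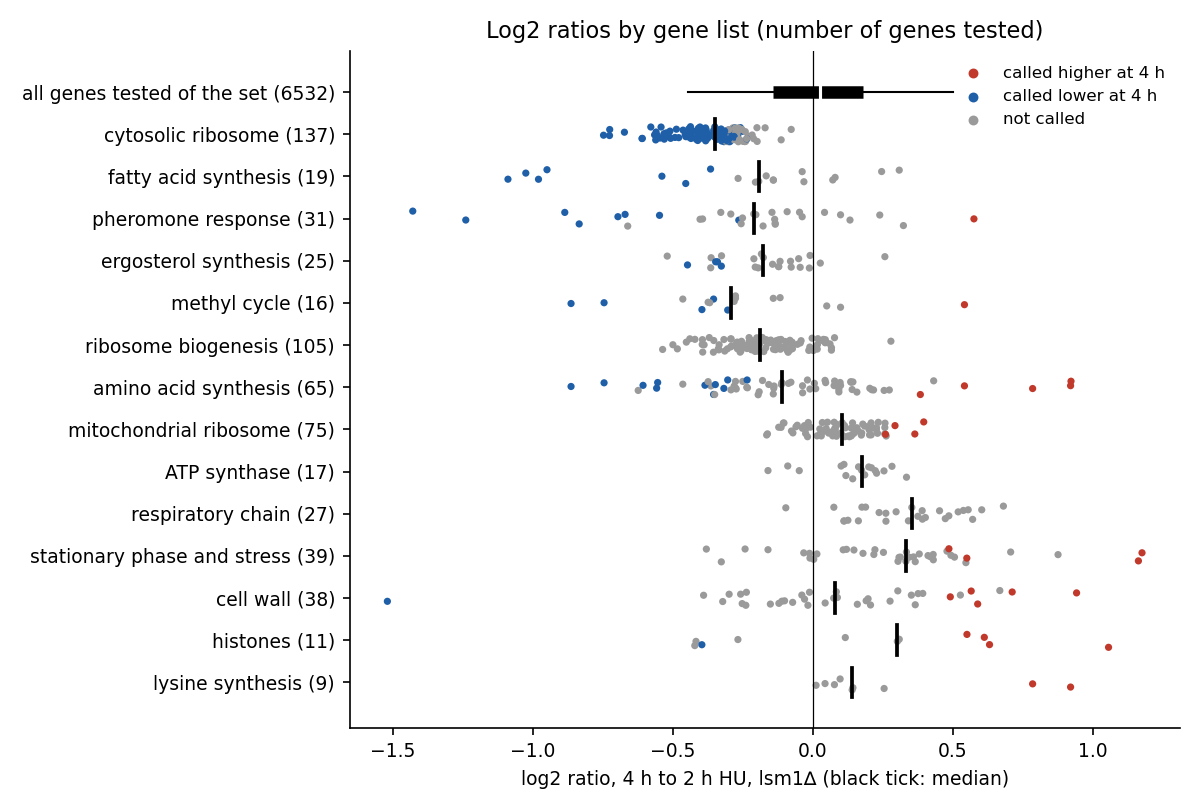
Log2 ratio of 4 h to 2 h of HU in *lsm1∆* for the tested genes of 14 lists, 1 point per gene, with the number of genes in brackets and the median as a black tick. The top bar spans the middle 50% of all 6532 genes and its thin line the middle 90%. The ribosomal proteins lie to the left as a block, whereas the fatty acid and pheromone lists have a few far points and a median nearer 0.

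**Figure D4:**
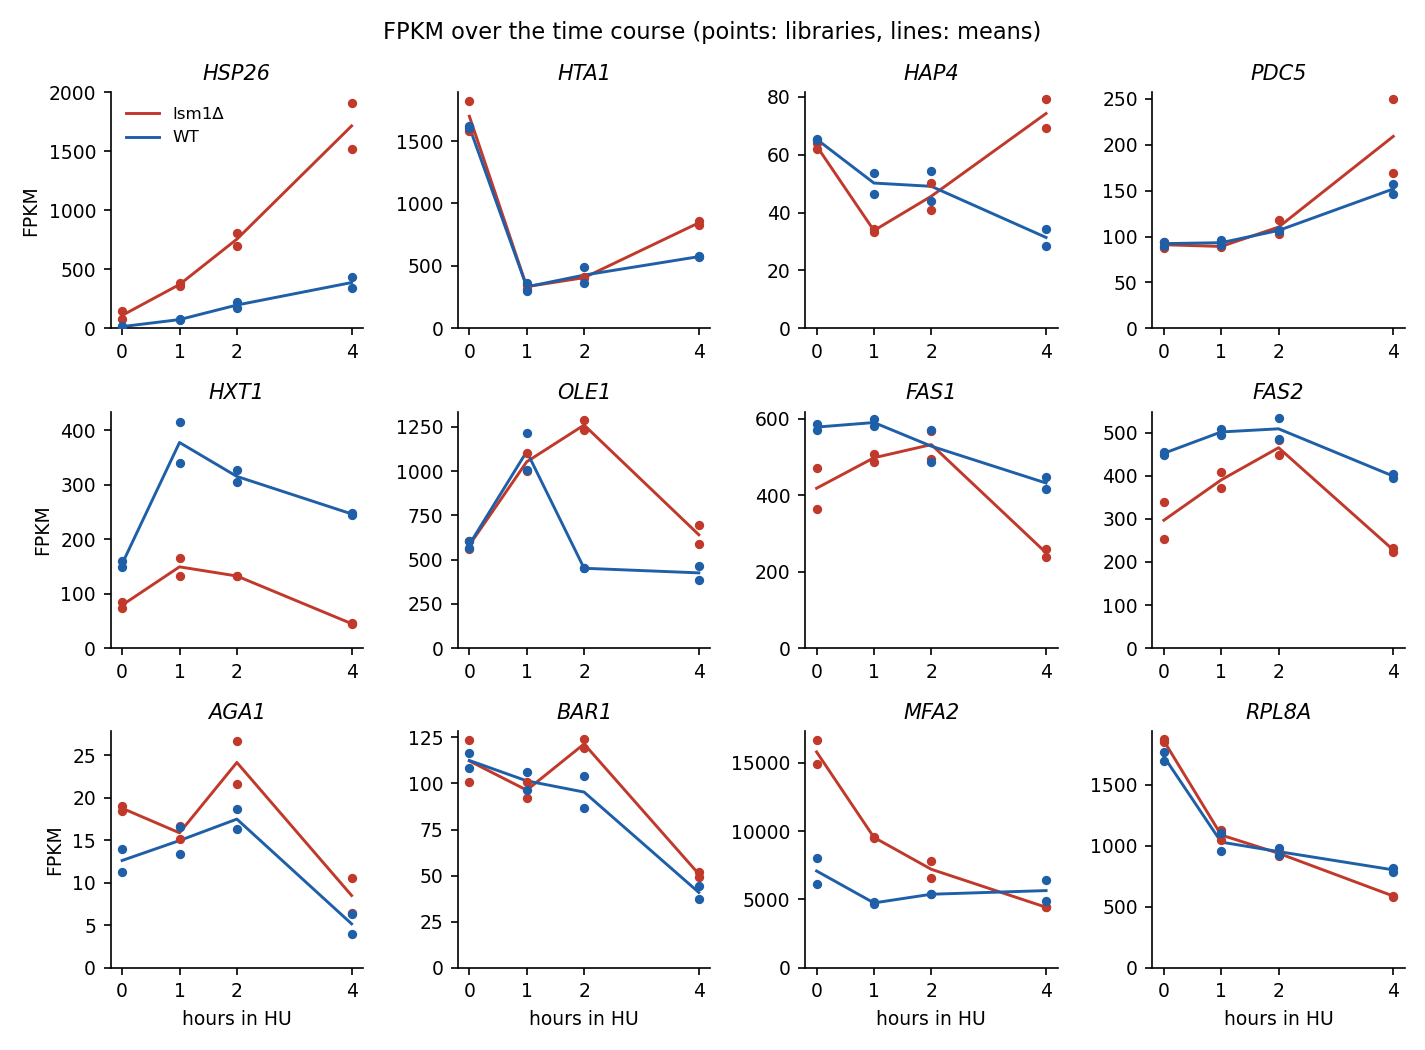
FPKM of 12 genes in untreated cells (0 h) and after 1, 2 and 4 h of HU in *lsm1∆* (red) and WT (blue), with a point for each library and a line through the means. The mean of *HSP26* is higher at each later time in *lsm1∆*, that of *OLE1* is highest at 2 h in *lsm1∆*, where 2 h and 1 h did not differ by the test, and at 1 h in WT, and the lines of *HAP4* diverge after 2 h.

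The same step in WT put these changes in context. In WT 122 genes rose and 1653 fell between 2 h and 4 h (1.76% and 23.8% of all genes tested, 25.5% together), but the whole WT distribution was shifted, with a median log2 ratio of -0.19. With each library centred on its own median, 239 genes rose and 174 fell in WT (3.47% and 2.49% of all genes tested, 5.96% together), while in *lsm1∆* 183 rose and 452 fell. On the uncentred scale 236 genes fell in both strains, which is 64.7% of those that fell in *lsm1∆* and 14.3% of those that fell in WT, and 38 rose in both, 14.1% and 31.1%. With centring 91 fell in both, 20.1% of the *lsm1∆* and 52.3% of the WT falls, and 54 rose in both, 29.5% and 22.6%. Some pheromone genes had similar log2 ratios in both strains on the uncentred scale, which all the pairs below use. Centring lowers every difference, *lsm1∆* minus WT, by the same amount, so which genes look alike depends on the scale. With centring the difference went from -0.04 to -0.29 for *BAR1*, from 0.18 to -0.08 for *AGA1* and from -0.45 to -0.71 for *STE2*. *BAR1* had a log2 ratio of -1.24 in *lsm1∆* and -1.20 in WT, *AGA1* -1.43 and -1.61, and *SST2* -0.83 and -0.79. Others did not, as *STE2* had -0.89 in *lsm1∆* and -0.43 in WT, *MFA2* -0.70 and 0.06, and *STE5* 0.58 and -0.14, of which the difference was called for *STE5* alone. *HMO1* had -0.71 in *lsm1∆* and -0.77 in WT, *PDC1* 0.60 and 0.56, *HUG1* 0.87 and 0.79, *HTB1* 0.55 and 0.53, *SAM2* -0.86 and -0.96, and *DHH1* -0.62 and -0.57. In none of these other than *STE5* was the difference between the strains' steps called, though with a standard error of up to 0.33 for *AGA1* sizeable differences would be missed.

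The difference between the steps, *lsm1∆* minus WT, was above 0 in 185 genes and below 0 in 10 (limma adjusted p under 0.05, 2.67% and 0.143% of all genes tested, 2.81% together). Its median over all genes was 0.21, which follows from the shift of WT, and with each library centred 2 genes were called above and 15 below (0.0287% and 0.215% of all genes tested, 0.244% together). The calls also rested on every library: leaving out any 1 of 7 of the 8 libraries left 0 to 3 genes above and 1 below, and only without the second 2 h library of WT did 131 and 7 remain. The 10 genes named for the largest differences kept their direction in each of these fits. They had been chosen for differences that were large against their error, so the kept direction adds no support. With only the 8 libraries compared in the fit, 9 of these 10 lost the call. *HXT1* fell more in *lsm1∆* than in WT, where it had 244 and 249 FPKM at 4 h and 327 and 304 FPKM at 2 h, with a difference of -1.19 ± 0.17 SE (adjusted p = 0.030, and 0.034 with centring). *OLE1* differed by -0.89 ± 0.17 SE (adjusted p = 0.039, and 0.046 with centring) and *FAS1* by -0.80 ± 0.17 SE (adjusted p = 0.046, and 0.076 with centring). *FAS1* had 416 and 448 FPKM at 4 h and 487 and 570 FPKM at 2 h in WT. Falls of fatty acid genes were not particular to *lsm1∆*, since 7 of the 19 listed genes also fell in WT, without centring. Their median log2 ratio in WT was -0.28, where that of all genes was -0.19. The list's median difference was 0.07, with 1 gene called above 0 and 2 below, *OLE1* and *FAS1*. *PRY1*, a secreted sterol-binding protein gene, was at 179 and 209 FPKM at 4 h and 108 and 103 FPKM at 2 h in WT but at 85.7 and 64.7 FPKM at 4 h and 95.1 and 88.4 FPKM at 2 h in *lsm1∆*, a difference of -1.17 (adjusted p = 0.034, and 0.046 with centring).

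Among genes of at least 300 bases the largest difference above 0 was that of *HAP4*, at 1.32 ± 0.19 SE (adjusted p = 0.030, and 0.046 with centring). *HAP4* rose in *lsm1∆*, as given above, and fell in WT to 34.3 and 28.5 FPKM at 4 h, against 54.2 and 43.9 FPKM at 2 h. YOR050C (1.29), YOR121C (1.20), *MRPL27* (0.78), *IWR1* (0.76), both also lower at 4 h in WT, *MRPS35* (0.75) and *MRPL13* (0.75) had differences above 0 as well, of which *MRPS35* kept its call with centring (adjusted p = 0.046). YOR121C lies within a stretch shared with YOR120W, and its reads may belong to that gene. On the mitochondrial ribosome list 17 of 75 genes had a called difference above 0 and 0 below, with a median of 0.43 against the 0.21 of all genes. Over all genes tested 2.67% were called above and 0.143% below. These counts carry the shift of WT, and with each library centred the 2 genes called above 0 were *HAP4* and *MRPS35*. In WT 48 of the 75 genes fell over the same step, with a median of -0.32, where 23.8% of all genes tested fell. *CDC39* differed by 0.53, *SKM1* by 0.71, *IML1* by 0.68 and *STE5* by 0.72, none of which was called with centring.

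**Figure D5:**
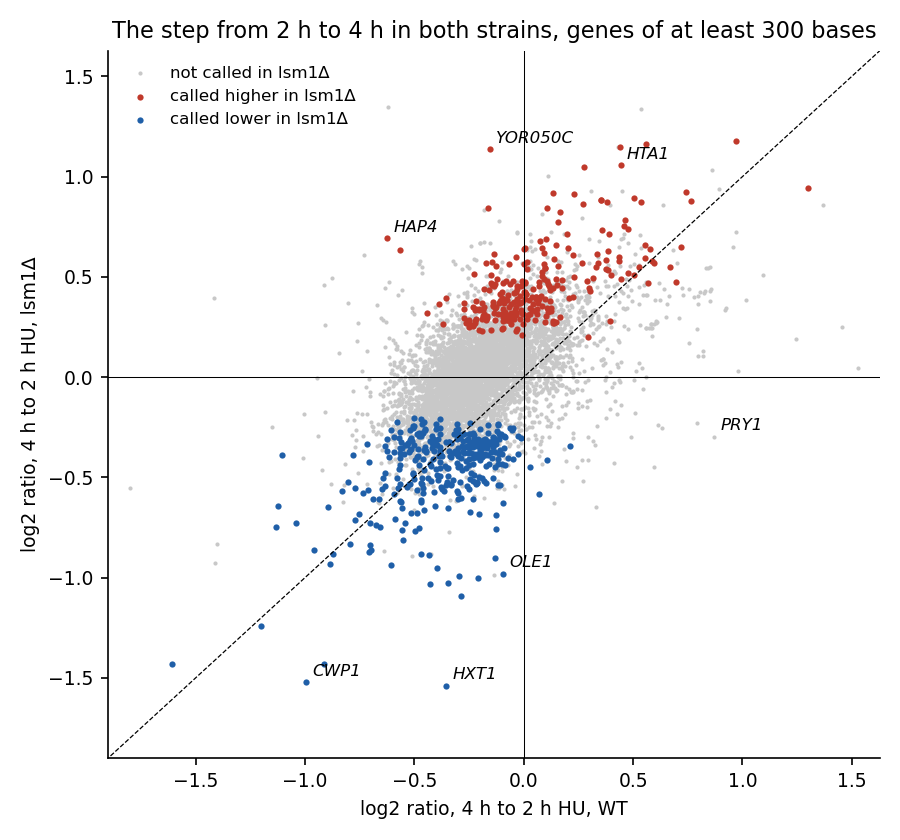
Log2 ratio of 4 h to 2 h of HU in *lsm1∆* (vertical axis) against that in WT (horizontal axis), 1 point for each tested gene of at least 300 bases, coloured by the call in *lsm1∆*. The cloud lies to the left of 0 because the WT step has a median of -0.19. *HAP4*, *HXT1*, *OLE1* and *PRY1* lie far from the dashed line of equal steps.

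Of the 138 named genes with a call, 44 kept it in *lsm1∆* when any 1 of the 4 compared libraries was left out, among them *HXT1*, *AGA1*, *BAR1*, *FAS1*, *FAS2*, *OLE1*, *ACC1*, *SKM1*, *GND2*, *HTA1*, *IML1*, *SAM2*, *DHH1* and *PDC1*. In a larger number the call was lost whichever of the 4 was left out, among them *HSP26*, *LYS1*, YLR225C, *FHN1*, *YOX1* and *HHT1*. All 635 called genes kept their sign in these fits, which was fixed in advance because their libraries did not overlap between the times. Over all genes of the set 30 that rose and 56 that fell were called in every one of these fits.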

How the data were processed

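RNA-seq libraries from *lsm1∆* and WT yeast, depleted of rRNA and made without keeping the strand, were sequenced as 50 bp reads by the study. The authors aligned them to sacCer3 with TopHat2 and estimated the level of each gene with Cufflinks and Cuffdiff, and the deposited values are FPKM per gene and library (tool versions are not given in the sources used here). The read counts behind the FPKM were not used here, and the depth was estimated from the width of the Cufflinks interval. All libraries were grouped by their labels, and the libraries of a condition may be technical replicates.

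FPKM values were taken as log2(FPKM + 1). Genes with a failed estimate in any library, or with fewer than 2 libraries at 1 FPKM, were left out, and 6977 genes were fitted over all 16 libraries in 1 model of 8 condition means (limma 3.58.1 with an intensity trend, R 4.3.3). Fold changes are on this scale, which understates those of low genes. P-values were adjusted over all genes by Benjamini-Hochberg and called under 0.05. The same model gave the WT step and the difference between the steps. The model was tested on simulated data. Tables and figures were made with Python 3.11.15, numpy 2.4.6, pandas 2.3.3 and matplotlib 3.10.9.

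Genes were named by rule: the 12 largest rises and 12 largest falls among called genes of at least 300 bases and 20 FPKM whose libraries did not overlap, the 5 largest called differences between the strains in each direction, up to 4 called genes of each of 38 lists and all genes of the HU and study lists. The lists, the set of genes and 4 further lists (fatty acids, phospholipids, lysine, methyl cycle) were chosen with earlier results of these data known. Other genes named in the text, such as *HMO1*, *STE5*, *MFA2*, *GCN4*, *HTA2*, *CLN1*, *CTT1*, *HSP12*, *HXT4*, *MIG2* and the elongase genes, and the motifs and promoters shown, were chosen after values had been seen. Promoters were read from the R64 genome. Alternatives were other filters, a pseudocount of 0.1, centring, fewer libraries, leaving out each library, the replicate number as a block and a stricter threshold.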

Additional observations from a re-analysis of the deposited data

Results flagged for a closer look

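The following genes had a step in *lsm1∆* that differed from the step in WT by the test of the difference itself (limma, adjusted p under 0.05, *lsm1∆* minus WT on the log2 scale). Below 0 were *HXT1* (-1.185), *FAS1* (-0.8027), *OLE1* (-0.8875), *PRY1* (-1.167), the wall protein gene *TIP1* (-0.8496) and YNL054W-A (-1.482), a Ty gene whose reads are shared among copies. Above 0 were *HAP4* (1.319), YOR050C (1.294), YOR121C (1.199), *MRPL27* (0.7821), *IWR1* (0.7642), *MRPS35* (0.7529), *MRPL13* (0.7527), *GAC1* (0.7359), *STE5* (0.7195), *SKM1* (0.7084), *IML1* (0.6798), *CLN2* (0.6374), *MRPL6* (0.5675), *GIC2* (0.5603), *CDC39* (0.5295), *SIC1* (0.5189), *MRP51* (0.4898), the proteasome subunit gene *RPN2* (0.4172) and *PAT1* (0.4088). The median difference over all genes was 0.21, so the smaller values above 0 lie near the general shift between the strains. With each library centred on its median, *HXT1*, *OLE1*, *PRY1*, *HAP4* and *MRPS35* kept the call among these genes.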

How the results depend on the processing

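All 635 calls kept their sign under each of the fits that leave out 1 of the 4 compared libraries. This was fixed in advance, since the libraries of the 2 times did not overlap in any called gene. The number of calls depended on the estimate of the spread. With the 8 *lsm1∆* libraries alone 103 genes rose and 107 fell, and with the 4 compared libraries alone 14 and 9. Leaving out 1 library gave 42 to 85 rises and 73 to 163 falls. At an adjusted p under 0.01, 71 and 117 were called. Centring, other filters, protein-coding genes alone, the pseudocount and the block gave 183 to 308 rises and 349 to 452 falls. Over all genes tested (272 rises and 366 falls), leaving out a WT library gave 203 to 232 and 291 to 329, and the 8 libraries of the strain comparison 334 and 381. The difference between the strains' steps (185 above 0 and 10 below) gave 2 above with centring, 288 with failed estimates kept, 285 above and 16 below with no filter on low values, 1 above and 3 below with only the 8 libraries compared, and 1 above and 1 below at an adjusted p under 0.01. Leaving out 1 library gave 0 to 131 above and 1 to 7 below. With the replicate number as a block 308 genes rose and 419 fell, and 310 differences were above 0 and 28 below. The numbers were not taken to pair the libraries, as the deviations of same-numbered libraries correlated at -0.07 between *lsm1∆* at 2 h and 4 h and at -0.207 to 0.229 over all pairs of conditions. Of the 138 named genes with a call in the *lsm1∆* step, 17 lost it with centring and 135 with only the 4 libraries compared, and 0 reversed. Short or little-read loci, paralogue pairs and overlapping genes limit single values.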

Other observations

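The letters AAAAATTTT, known as the ribosomal RNA processing element, occurred within 500 bases before the start codon in 20.6% of the genes that fell other than ribosomal protein genes, in 5.69% of the genes that rose and in 9.46% of all promoters, and in 67.6% of the ribosome assembly list. The share of genes that fell grew with their level, whereas the share that rose changed little with it. Of 1491 tested genes between 0 and 20 FPKM 49 rose and 19 fell. Of the 334 most abundant genes 13 rose and 119 fell, where 27 of the falls were not in ribosomal protein genes. Over all genes tested 3.9% rose and 5.25% fell. No snoRNA gene was called among 84, and the 11 tRNA genes that rose were 10 copies of tS(AGA) and tM(CAU)Q1.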
